A study of Mus musculus with 10 samples.

Results

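The 5 nuclear topoisomerase genes of the mouse, Top1, Top2a, Top2b, Top3a and Top3b, were followed through the loss of the transcription factor SOX2. They were picked by gene symbol from the 40779 transcribed units (TUs) of the data set, together with every TU on the other strand that overlapped them. By the study's methods, TUs are stretches of nascent signal on a strand, with short gaps bridged and some signal split at annotated gene starts. All 5 symbols named 1 TU each, and all 5 TUs passed the filter on low counts, as did 28459 TUs in all. On the other strand, 10 TUs overlapped a member, and 8 of them passed the filter.

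Topoisomerases are enzymes that cut DNA, let the cut strands pass or turn, and seal them again. Type I enzymes cut a single strand and type II enzymes cut both, and each kind relieves the twisting that builds up ahead of and behind a moving polymerase. TOP1 works along transcribed genes, TOP2A disentangles chromosomes in dividing cells, TOP2B is the type II enzyme that non-dividing cells also use, and the TOP3 enzymes, of type IA, untangle single strands together with partner proteins.

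Nascent RNA was read with TT_chem_seq, in which RNA made during a short pulse of 4-thiouridine (2 mM for 10 min) is fragmented, pulled down and sequenced. The cells were SOX2-FKBP mouse embryonic stem cells, an E14 line in which both copies of Sox2 carry an FKBP tag that the small molecule dTAG-13 uses to have the protein degraded. The 10 libraries formed 5 groups of 2 replicates, namely DMSO-treated controls (NT) and cells taken 0.5, 1, 2 and 6 hours post depletion (hpd, or h after adding 500 nM dTAG-13). Every group, NT included, carried the tagged Sox2, and untagged cells given dTAG-13 were not analysed here. According to the study's methods the tagged line was grown from picked homozygous cells. All libraries thus stand for that line. No source says whether replicates were separate cultures, so that p-values measure only the spread between these libraries.

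Totals ran from 11131490 to 25854106 fragments per library. All 8 stem cell markers were measured, with a summed level of 2814 to 3692 CPM (counts per 1000000 fragments of the library, scaled with TMM factors) in each library, lower at 6 hpd (2814 to 2953) than in NT (3380 to 3692). Of 6 fibroblast markers 3 had a TU, and their sum was 9.74 to 12.5 CPM in NT and 27.3 to 42.6 after 6 h, nearly all of it Pdgfrb, with Col1a1 at 1.16 CPM or less. Markers of primitive endoderm summed to 2.40 to 2.96 CPM in NT and 3.49 to 4.14 at 6 hpd, of trophoblast to 2.22 to 2.69 and 3.44 to 3.96, and of neural progenitors to 9.83 to 14.5 and 11.6 to 15.0 (2.40 to 4.50, 2.22 to 9.47 and 9.83 to 17.8 over all libraries). The part of these shifts in the results on topoisomerases was not tested. Levels are relative to each library's total, and fewer cells making an RNA cannot be told apart from less of it per cell.

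Before any change over time, the genes differed in where they lie and what surrounds them. In build GRCm38.p6 (mm10), Top1 occupied chr2:160645886-160729938 on the plus strand, an 84.1 kb TU over a gene of 21 exons. Its start was crossed by an 18.7 kb TU on the minus strand, chr2:160637513-160656258, which began 10.4 kb inside Top1, in intron 2, ran back over the start and so covered 12.3% of the Top1 TU. Top2a lay at chr11:98985200-99029904 on the minus strand with 3 weak TUs opposite, Top2b at chr14:16365205-16439621 on the plus strand facing the end of Rarb, Top3a at chr11:60727274-60777365 on the minus strand between Mief2 and Smcr8, and Top3b at chr16:16864106-16896634 on the plus strand with Igll1 across its start.

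**Figure D1:**
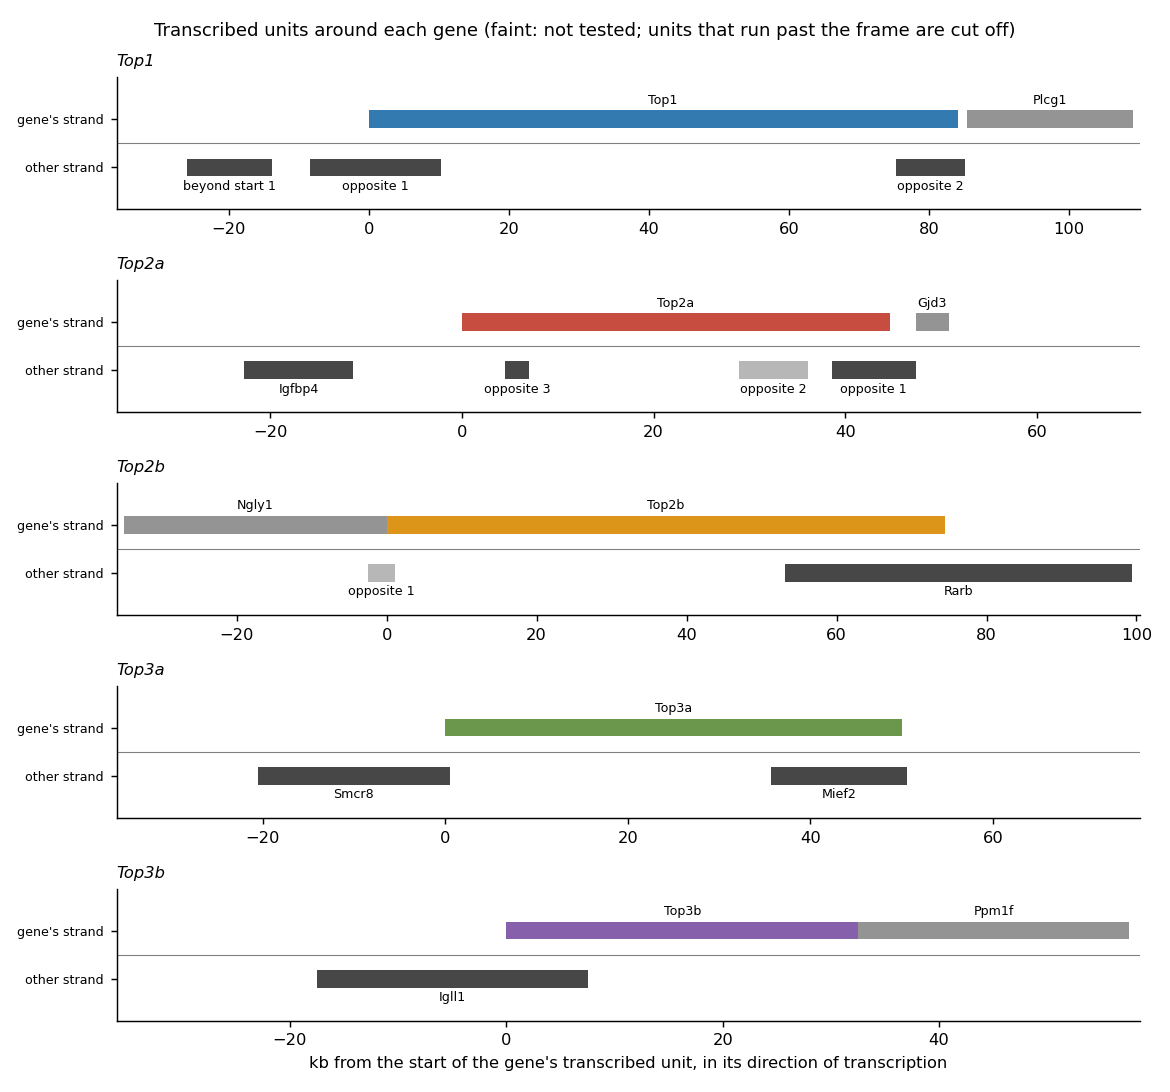
Arrangement of transcribed units around each topoisomerase gene, in kb from the start of its unit along its own direction of transcription. Units on the gene's strand lie above the line and units on the other strand below it, faint bars held too few fragments to be tested, and the Top1 row shows the unit that crosses its start (opposite 1) and a weaker unit farther along the same strand (beyond start 1).

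The sequences at these starts are given because the text turns on a unit that begins inside Top1 and on promoters of genes that changed. Capitals mark matches, on either strand, to letters that a script searched for: CATTGTT and CTTTGTT, which SOX proteins can bind, ATGCAAAT, the octamer bound by OCT4, CCAAT, the CCAAT box, and GGGCGG, the GC box. The opposite unit is shown from 250 bases before its start to 50 after it (chr2:160656209-160656508, minus strand), and the promoters as the 250 bases up to the start in the RefSeq promoter table, which for Top2a lies 10 bases inside the gene's annotated start, chr2:160645647-160645896 for Top1, chr11:99024190-99024439 (minus strand) for Top2a and chr14:16364956-16365205 for Top2b.
start of the unit opposite Top1: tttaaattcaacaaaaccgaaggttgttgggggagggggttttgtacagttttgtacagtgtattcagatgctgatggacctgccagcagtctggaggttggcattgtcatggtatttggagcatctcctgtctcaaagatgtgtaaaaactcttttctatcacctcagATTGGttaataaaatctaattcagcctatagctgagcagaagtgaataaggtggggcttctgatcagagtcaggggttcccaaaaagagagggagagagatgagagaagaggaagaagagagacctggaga
Top1 promoter: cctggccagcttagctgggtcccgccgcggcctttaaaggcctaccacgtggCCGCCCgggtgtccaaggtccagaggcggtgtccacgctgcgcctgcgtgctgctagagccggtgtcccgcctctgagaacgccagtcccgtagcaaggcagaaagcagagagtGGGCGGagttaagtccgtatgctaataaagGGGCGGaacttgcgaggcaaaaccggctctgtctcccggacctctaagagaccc
Top2a promoter: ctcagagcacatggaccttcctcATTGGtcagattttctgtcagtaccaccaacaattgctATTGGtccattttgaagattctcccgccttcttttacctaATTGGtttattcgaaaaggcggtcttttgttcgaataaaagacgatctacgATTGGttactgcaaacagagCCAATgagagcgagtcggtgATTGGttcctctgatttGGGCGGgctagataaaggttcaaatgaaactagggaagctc
Top2b promoter: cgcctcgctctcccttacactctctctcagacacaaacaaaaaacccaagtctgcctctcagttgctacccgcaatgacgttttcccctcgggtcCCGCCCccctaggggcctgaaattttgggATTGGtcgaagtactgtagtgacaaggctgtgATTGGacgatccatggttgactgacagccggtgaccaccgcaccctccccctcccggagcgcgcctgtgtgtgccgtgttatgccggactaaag
In the window at the opposite unit, 1 CCAAT match was found and none of the exact SOX or octamer letters. Near spellings, such as the cattgtc in this window, were not searched for, so that the absence of a SOX site was not tested. The Top1 promoter held 3 GGGCGG matches and no CCAAT. The Top2a promoter, known from textbooks for its CCAAT boxes, held 6 CCAAT matches and 1 GGGCGG, and that of Top2b held 2 and 1. Among 32544 RefSeq promoters, each from 250 bases before the start to 50 after it, 37.4% held CCAAT, 35.9% GGGCGG, 3.71% CATTGTT, 5.85% CTTTGTT and 1.75% ATGCAAAT. The promoters shown above lack those last 50 bases, so that their matches stand beside shares from longer windows. Among 5669 starts of antisense units in windows of the same length, these shares were 35.8%, 30.0%, 2.91%, 5.70% and 1.91%. Top3a was not matched in the promoter table.

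The 5 genes were transcribed at levels far apart. Per kb of TU, NT cells gave 9.59 ± 0.293 CPM per kb (SD, n = 2) for Top2a, 3.51 ± 0.00601 for Top3b, 2.83 ± 0.248 for Top1, 2.06 ± 0.0964 for Top3a and 0.894 ± 0.0273 for Top2b. No neighbours in that order overlapped in NT. From 1 hpd on, Top1 and Top3b could not be ordered beyond their spread, with group means of 3.74 ± 0.331 and 3.69 ± 0.192 CPM per kb at 1 hpd and of 3.97 ± 0.0469 and 3.92 ± 0.184 at 6 hpd. Top2a stayed the highest (9.59 to 12.4 CPM per kb over the group means) and Top2b the lowest (0.894 to 1.54).

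Whether the trend of Top1 was shared by its family was asked at each time against NT. Of the 5 genes, 0 were called at 0.5 hpd (edgeR's quasi-likelihood test, Benjamini-Hochberg adjusted p under 0.05 over all TUs), where 1.31% of all TUs tested were called (0.527% up and 0.787% down). No member had an unadjusted p under 0.05 there, and DESeq2 called 0. At 1 hpd 0 of 5 were called (edgeR, 3 at an unadjusted p under 0.05, DESeq2 0), against 5.75% of TUs (2.15% up and 3.61% down). At 2 hpd 3 of 5, Top1, Top2a and Top2b, were called up (edgeR, 3 at an unadjusted p under 0.05, DESeq2 3), against 9.83% of TUs (4.26% up and 5.57% down). At 6 hpd 2 of 5, Top1 and Top2b, were called up (edgeR, 3 at an unadjusted p under 0.05), while DESeq2 called Top2a as well and so 3, against 15.8% of TUs (6.61% up and 9.20% down). No member was called down (edgeR, 0 at an unadjusted p under 0.05 and 0 by DESeq2 at each time). The median log2 fold change of the 5 was 0.14, 0.27, 0.37 and 0.28 at 0.5, 1, 2 and 6 hpd, and that of all TUs tested -0.02, -0.04, -0.04 and -0.04. Fitted on only the libraries compared, 3 of 5 were called up at 1 hpd (Top1, Top2a and Top2b), where that fit called 7.23% of TUs up. Over all TUs the balance of calls differed between settings. With total counts only, calls up made 1.62% after 1 h and 2.93% after 2 h, beside 4.33% and 7.26% for calls down. DESeq2 called 0.940%, 3.27% and 5.69% up after 0.5, 1 and 2 h, beside 0.897%, 3.24% and 4.49% in the other direction, from fewer TUs with an adjusted p (21286 to 23493), while edgeR with the RLE factors that DESeq2 uses called 0.513%, 2.27% and 4.59% up and 0.766%, 3.35% and 5.21% the other way. The 4 comparisons share the NT libraries. Top1 was singled out by the study on these libraries, so that its p-values are no independent evidence.

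**Figure D2:**
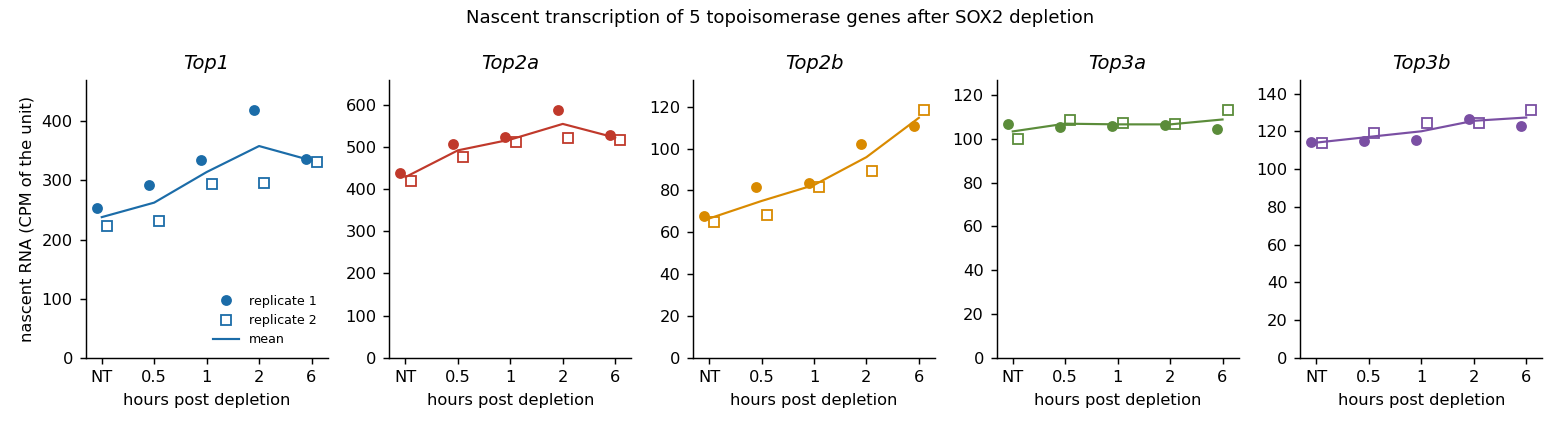
CPM of the transcribed unit of each gene in every library, from 0 upwards, in NT cells and at 0.5, 1, 2 and 6 hpd, with replicate 1 as filled circles, replicate 2 as open squares and a line through the means. Top1, Top2a and Top2b lie higher at 2 and 6 hpd than in NT, while the libraries of Top3a overlap NT at every time and run from 99.9 to 113 CPM.

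Top1 was measured at 253 and 223 CPM in NT (replicates 1 and 2), 293 and 232 after 0.5 h, 334 and 295 after 1 h, 420 and 296 after 2 h, and 336 and 331 after 6 h. Both libraries lay above the NT range from 1 hpd on and overlapped it at 0.5 hpd, and replicate 1 was the higher in 5 of 5 groups. The log2 fold change was 0.14 ± 0.15 (SE, 95% interval -0.18 to 0.47) at 0.5 hpd and 0.40 ± 0.15 at 1 hpd (edgeR adjusted p = 0.88 and 0.17). Top1 rose by 0.59 ± 0.15 at 2 hpd, or 1.51-fold, and by 0.49 ± 0.15 at 6 hpd (edgeR adjusted p = 0.023 and 0.042). Between 1 and 6 hpd its log2 change was 0.09 (edgeR adjusted p = 0.81). Leaving out NT replicate 1 (0.68), NT replicate 2 (0.50) or replicate 1 of 2 hpd (0.32) ended the call at 2 hpd, with edgeR adjusted p = 0.061, 0.21 and 0.27. Leaving out any of the NT (0.59 and 0.42), 1 hpd (0.49 for each) or 6 hpd libraries (0.49 and 0.50) ended that at 6 hpd, with edgeR adjusted p of 0.057 to 0.26, as did a filter at a mean of 50 fragments (0.44, edgeR adjusted p = 0.061).

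Top2a, the most transcribed of the family, was at 438 and 419 CPM in NT, 507 and 476 after 0.5 h, 523 and 512 after 1 h, 589 and 520 after 2 h, and 528 and 516 after 6 h. Every depleted library stood above both NT libraries, beginning with those at 0.5 hpd, and replicate 1 was again the higher in 5 of 5 groups. The log2 fold change was 0.20 ± 0.10 at 0.5 hpd and 0.27 at 1 hpd (edgeR adjusted p = 0.60 and 0.17). At 2 hpd Top2a rose by 0.37 ± 0.10, or 1.29-fold (edgeR adjusted p = 0.033), and the value at 6 hpd was 0.28 ± 0.10 (edgeR adjusted p = 0.076). The log2 change between 1 and 6 hpd was 0.01. Leaving out NT replicate 1 (0.40), NT replicate 2 (0.34), a 1 hpd library (0.37) or replicate 1 of 2 hpd (0.28) ended the call at 2 hpd, with edgeR adjusted p of 0.071 to 0.20, as did a fit on only the libraries compared (0.39, edgeR adjusted p = 0.18). That fit (0.26, edgeR adjusted p = 0.035) and DESeq2 (0.31, adjusted p = 0.049) called Top2a at 6 hpd. Leaving out replicate 2 of 0.5 hpd (0.30) or replicate 1 or 2 of 2 hpd (0.28 and 0.30) also added that call, with edgeR adjusted p of 0.030 to 0.049.

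Top2b was at 68.0 and 65.1 CPM in NT, 81.5 and 68.3 after 0.5 h, 83.5 and 81.5 after 1 h, 102 and 89.4 after 2 h, and 111 and 119 after 6 h. Its 2 libraries at 6 hpd were the highest of all 10, and every depleted library stood above NT. The log2 fold change was 0.18 ± 0.11 at 0.5 hpd and 0.31 ± 0.11 at 1 hpd (edgeR adjusted p = 0.72 and 0.14), and that at 0.5 hpd lay between 0.041 and 0.30 when a library was left out. Top2b rose by 0.53 ± 0.11 at 2 hpd and by 0.79 ± 0.11 at 6 hpd, 1.44-fold and 1.72-fold (edgeR adjusted p = 0.0069 and 2.1e-04). The call at 6 hpd held in every alternative run and without each library in turn, where it lay between 0.74 and 0.85. Leaving out NT replicate 2 (0.50) or replicate 1 of 2 hpd (0.43) ended the call at 2 hpd, with edgeR adjusted p = 0.074 and 0.060.

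From 1 to 6 hpd, a contrast that uses no NT library, Top2b rose by 0.47 ± 0.11 (edgeR adjusted p = 0.022), and 1 of 5 members was called, where 4.88% of TUs were called (1.96% up and 2.92% down). Leaving out any of the 4 libraries compared ended that call, with values of 0.49 and 0.46 for replicates 1 and 2 of 1 hpd and of 0.52 and 0.42 for those of 6 hpd. Whether Top2b differed from the other members in this contrast was not tested. Over the 4 time points together, 1 of 5 members was called, Top2b (edgeR adjusted p = 0.0011), where 12.3% of TUs were. Top1 had a joint edgeR adjusted p of 0.063 and Top2a of 0.15. Without a 0.5 hpd or 2 hpd library 2 or 3 members were called jointly.

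Top3a, which works with the BLM helicase on recombination intermediates, was at 107 and 99.9 CPM in NT, 105 and 108 after 0.5 h, 106 and 107 after 1 h and again after 2 h, and 104 and 113 after 6 h. No time stood apart from NT. The log2 fold changes were 0.05, 0.04, 0.04 and 0.07 ± 0.10 at 0.5, 1, 2 and 6 hpd (edgeR adjusted p = 0.95, 0.85, 0.83 and 0.64), with a 95% interval at 6 hpd of -0.13 to 0.28. Scaled by total counts alone, the values at 1, 2 and 6 hpd were -0.04, -0.07 and -0.02.

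Top3b, the paralog that acts on RNA as well as DNA, was at 114 and 114 CPM in NT, 115 and 119 after 0.5 h, 116 and 124 after 1 h, 127 and 124 after 2 h, and 123 and 132 after 6 h. Every depleted library lay above both NT libraries. The log2 fold changes were 0.04, 0.07, 0.14 and 0.16 ± 0.10 (edgeR adjusted p = 0.96, 0.74, 0.41 and 0.28), with a 95% interval at 6 hpd of -0.05 to 0.36, and the value at 1 hpd was -0.01 when scaled by total counts. That scaling moved the median of all TUs to -0.06, -0.13, -0.16 and -0.13 at the 4 times, so that changes are read relative to it.

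**Figure D3:**
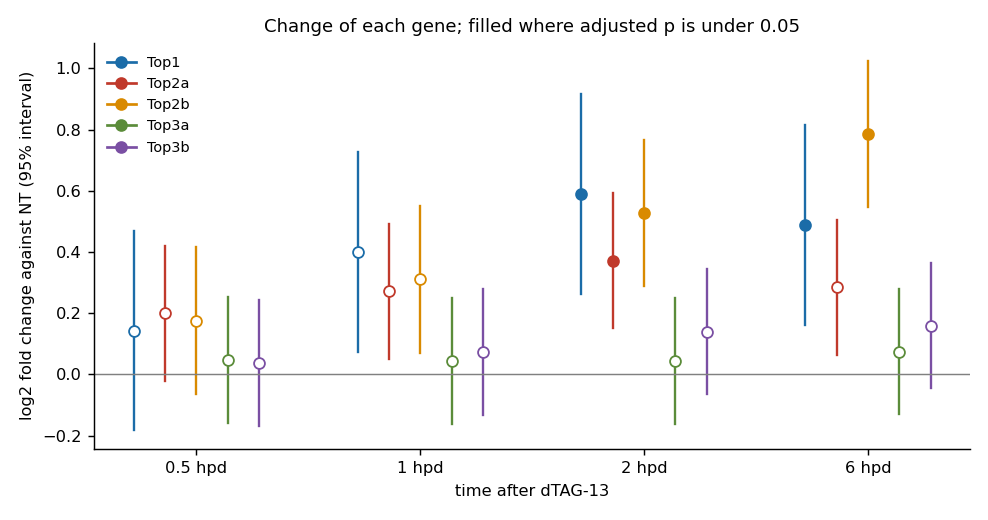
Log2 fold change of each topoisomerase gene against NT at 0.5, 1, 2 and 6 hpd, with 95% intervals from the fit. Filled points had an adjusted p under 0.05, which held for Top1, Top2a and Top2b at 2 hpd and for Top1 and Top2b at 6 hpd, while the intervals of Top3a and Top3b included 0 at each time.

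The level of Top1 was also set against that of each other gene within a library. The log2 ratio of Top1 to Top2b was 1.78 to 1.89 in NT, 1.73 to 2.04 at 2 hpd and 1.48 to 1.60 at 6 hpd, where both libraries lay below every other library. The ratio of Top1 to Top3a was 1.16 to 1.24 in NT and 1.55 to 1.69 at 6 hpd, and that of Top1 to Top3b 0.97 to 1.15 and 1.33 to 1.45. For Top1 to Top2a it was -0.91 to -0.79 in NT and -0.65 to -0.64 at 6 hpd, and it overlapped NT at 0.5 hpd (-1.04 to -0.79), 1 hpd (-0.80 to -0.65) and 2 hpd (-0.81 to -0.49). With 2 libraries against 2, an exact permutation test (two-sided) cannot go below p = 0.333, and these differences between genes were not tested in another way.

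Over the 10 libraries, log2 CPM of Top1 followed that of Top2a (Pearson r 0.92) and of Top2b (0.83) more closely than that of Top3b (0.61) or Top3a (0.31). These are descriptions over libraries that share groups, with a common replicate difference in Top1 and Top2a. Among 11937 genes with a mean of at least 50 fragments, the profile of Top1 was most like those of Stag2 (r 0.995), Arl6ip6 (0.994) and Chfr (0.992). That of Top2a was most like 4732471J01Rik (0.988) and Pip5k1a (0.978), and that of Top2b like Arfgef1 (0.996), Capn7 (0.994) and Arhgap42 (0.991). For Top3a the closest were Zfp784 (0.906), Mtfmt (0.894) and Qtrt1 (0.865), and for Top3b Gm3587 (0.961), Gramd1b (0.956) and Bcar3 (0.950).

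The unit that crosses the start of Top1 from the other strand moved by far more than any topoisomerase gene. It held 65.2 and 61.3 CPM in NT (968 and 844 fragments), 11.2 and 9.49 after 0.5 h, 2.82 and 2.16 after 1 h, 1.26 and 1.64 after 2 h, and 0.632 and 0.699 after 6 h (9 and 12 fragments). Per kb it was transcribed in NT at 3.37 ± 0.144 CPM per kb, with both libraries (3.48 and 3.27) above those of Top1 itself (3.01 and 2.66), and at 6 hpd at 0.0355 ± 0.00251. It fell at every time, with log2 fold changes of -2.60 ± 0.14, -4.67 ± 0.17, -5.45 ± 0.18 and -6.55 ± 0.21 from 0.5 to 6 hpd (edgeR adjusted p = 1.8e-07, 9.6e-10, 1.3e-10 and 6.6e-11). From 1 to 6 hpd it fell by a further 1.88 ± 0.29 (edgeR adjusted p = 0.0012). Each of these calls held in every alternative and without each library. The study had singled out this locus too, so that the tests are no independent evidence.

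**Figure D4:**
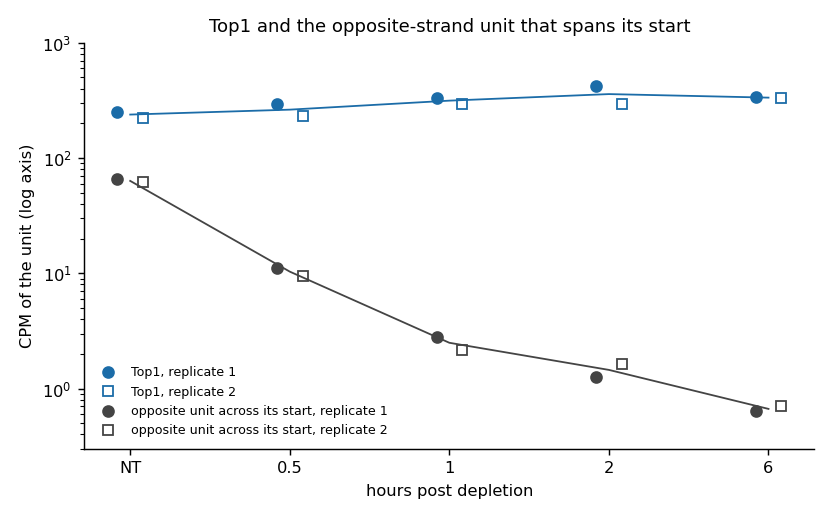
CPM of Top1 (blue) and of the opposite-strand unit across its start (dark) in every library on a log axis, from NT to 6 hpd, with lines through the group means. The opposite unit drops from 61.3 to 65.2 CPM in NT to 0.632 to 0.699 at 6 hpd, while Top1 stays between 223 and 420 CPM.

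The strands were also compared library by library. For every 100 Top1 fragments the opposite unit had 25.8 and 27.5 in NT, 3.81 and 4.09 after 0.5 h, 0.845 and 0.735 after 1 h, 0.301 and 0.552 after 2 h, and 0.188 and 0.211 after 6 h. Both Top1 libraries at 1 hpd (334 and 295 CPM) were above NT with 45 and 38 opposite fragments left, and whether the strands differed in timing was not tested. The sum of both strands was 318 and 284 CPM in NT and 337 and 332 after 6 h. Farther along the minus strand, 5476 bp past the end of this unit, an extragenic TU (chr2:160619862-160632036, chosen after its values were seen) held 22 and 22 fragments in NT, 53 and 16 after 0.5 h, 10 and 5 after 1 h, 1 and 1 after 2 h and 0 and 0 after 6 h. It fell at 1 hpd (log2 fold change -1.76 ± 0.45) and at 2 hpd (edgeR adjusted p = 0.032 and 3.5e-04). As this TU was chosen after its values were seen, its tests are no independent evidence. The 2 fragments at 2 hpd, against 44 in NT, gave 0.0353 of the NT level, with a 95% counting interval of 0.00414 to 0.135 (exact binomial). That interval leaves out the spread between libraries. The call at 1 hpd ended when an NT (-1.80 and -1.69) or a 1 hpd library (-2.40 and -1.28) was left out. At 6 hpd it was at least 7.99-fold lower than NT, with 3 fragments per library as the floor.

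Other units around Top1 gave no call. The TU opposite its end (chr2:160721102-160730986) held 4 to 21 fragments per library and had a log2 fold change of 0.11 ± 0.56 at 6 hpd (edgeR adjusted p = 0.91). Plcg1, which encodes a phospholipase C and begins 1364 bp after the Top1 TU on the same strand, was at 62.1 and 56.8 CPM in NT and 56.4 and 63.7 after 6 h (log2 fold change 0.01 ± 0.11, edgeR adjusted p = 0.94). Fam83d, the nearest tested gene before Top1 although 1853 kb away, was at 61.2 and 52.2 CPM in NT and 59.7 and 53.5 after 6 h.

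Over all genes, opposite-strand units called down numbered 1, 1, 2 and 2 of the 8 tested at 0.5, 1, 2 and 6 hpd, and 0 were called up (edgeR, 1 at an unadjusted p under 0.05 at 6 hpd and 0 before, DESeq2 0), read against the shares of all TUs given above. The unit across the start of Top1 made up the count at 0.5 and 1 hpd, and Mief2 joined it at 2 and 6 hpd.

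**Figure D5:**
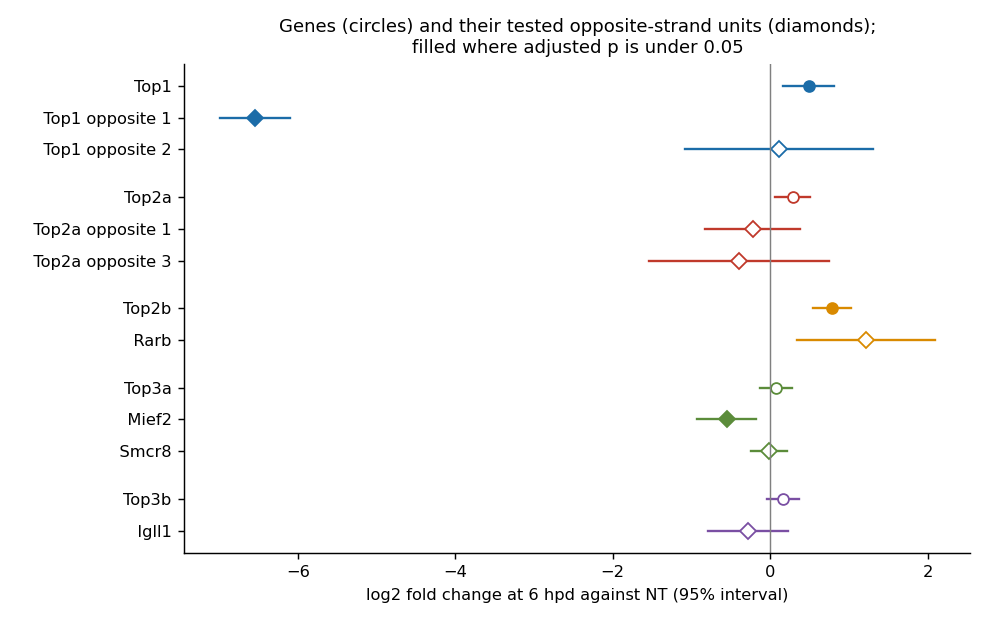
Log2 fold change at 6 hpd against NT, with 95% intervals, of each topoisomerase gene (circles) and of the opposite-strand units tested at its locus (diamonds), filled where the adjusted p was under 0.05. The unit across the start of Top1 stands at -6.55, Mief2 at -0.55, and the other diamonds are open.

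Opposite Top3a, Mief2, which encodes a mitochondrial fission factor, shared 14.4 kb with it and covered 28.7% of the Top3a TU. Mief2 held 11.6 and 11.6 CPM in NT, 8.51 and 9.15 after 0.5 h, 6.77 and 8.71 after 1 h, 6.57 and 8.36 after 2 h, and 8.22 and 7.57 after 6 h. All 8 depleted libraries lay below NT. Its log2 fold change was -0.58 at 1 hpd (edgeR adjusted p = 0.070), and it fell at 2 hpd (-0.64 ± 0.17) and 6 hpd (-0.55 ± 0.17, edgeR adjusted p = 0.030 and 0.044), while Top3a was not called. Leaving out an NT library (-0.64 for each) or replicate 1 of 2 hpd (-0.47) ended the call at 2 hpd. Leaving out an NT library (-0.54 for each), replicate 2 of 0.5 hpd (-0.53) or a 6 hpd library (-0.60 and -0.49) ended that at 6 hpd. DESeq2 made neither call, a fit on only the libraries compared did not call the change at 2 hpd (-0.62), and RLE factors (-0.52) or no count filter (-0.53) did not call that at 6 hpd. Smcr8, an autophagy regulator whose TU overlaps the start of Top3a by 480 bp, was at 68.0 and 59.1 CPM in NT and 64.3 and 61.6 after 6 h (log2 fold change -0.01 ± 0.11, edgeR adjusted p = 0.95).

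Opposite Top2b, Rarb, which encodes a retinoic acid receptor, shared 21.3 kb and covered 28.6% of the Top2b TU. Rarb was at 21.6 and 11.6 CPM in NT, 29.3 and 15.2 after 0.5 h, 28.4 and 12.4 after 1 h, 27.4 and 15.1 after 2 h, and 50.9 and 26.8 after 6 h. Replicate 1 exceeded replicate 2 in 5 of 5 groups, and the 6 hpd libraries stood above both of NT. The log2 fold change at 6 hpd was 1.22 ± 0.41 (95% interval 0.34 to 2.09, edgeR adjusted p = 0.057). Leaving out any library of 0.5, 1 or 2 hpd (1.22 to 1.24) or replicate 2 of 6 hpd (1.61) gave an edgeR adjusted p of 0.028 to 0.039, having no count filter gave 0.036, and fitting only the libraries compared gave 0.0018. The value was 0.70 without replicate 1 of 6 hpd and 1.76 without NT replicate 1, and neither was called. With a term for the replicate number, Rarb was called up at 6 hpd (log2 fold change 1.23, edgeR adjusted p = 1.0e-07). That fit called 11.9% of all TUs up, and no source says that the numbers pair libraries. A TU across the start of Top2b (chr14:16362787-16366300, minus strand) held 1 to 11 fragments per library and was not tested.

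The neighbour just before Top2b moved with it. Ngly1, which encodes an enzyme that strips sugar chains from misfolded proteins, ends 10 bp before the Top2b TU on the same strand and was at 41.1 and 43.8 CPM in NT, 49.2 and 45.2 after 0.5 h, 43.7 and 48.3 after 1 h, 60.0 and 53.8 after 2 h, and 64.6 and 67.1 after 6 h. The libraries at 0.5, 2 and 6 hpd lay above both of NT, and those at 1 hpd overlapped it. Ngly1 rose by 0.42 ± 0.11 at 2 hpd and by 0.63 ± 0.11 at 6 hpd (edgeR adjusted p = 0.020 and 8.8e-04), the first of which ended as a call when an NT library (0.37 and 0.47) or replicate 1 of 2 hpd (0.34) was left out, when counts were scaled by totals alone (0.30) and when only the libraries compared were fitted (0.44). Per kb, Ngly1 went from 0.348 ± 0.0160 to 0.540 ± 0.0147 CPM per kb between NT and 6 hpd, and Top2b from 0.894 ± 0.0273 to 1.54 ± 0.0753. Since the TUs abut, transcription that ran on from Ngly1 into Top2b would be counted in Top2b, and its part in the change was not tested. The study split signal over several genes at annotated starts where it rose, so that the border need not be where Ngly1 transcription ends.

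Units at the other loci gave no call. Opposite Top2a, the TU over the end of the gene (chr11:98982570-98991320) held 31 to 50 fragments per library (log2 fold change at 6 hpd -0.22 ± 0.28), that near its RefSeq start (chr11:99022918-99025407) 6 to 26 (-0.39 ± 0.54), and the TU between them 2 to 11, too few for a test. The genes next to Top2a, Gjd3 and Igfbp4, held 2 to 17 fragments per library. Igll1, which encodes a part of the receptor of B cell precursors and covers 23.3% of the Top3b TU from the other strand, was at 6.12 and 7.78 CPM in NT and 4.07 and 7.22 after 6 h (log2 fold change -0.28 ± 0.24, edgeR adjusted p = 0.46). Ppm1f, a phosphatase gene that follows 10 bp after Top3b, was at 55.9 and 56.2 CPM in NT and 58.7 and 58.6 after 6 h (log2 fold change 0.06 ± 0.09).

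Genes that work with topoisomerases were described by lists, in which Stag1, Nipbl, Mki67, Cenpe, Rad50 and Polr2a are named after their values were seen. Of 3 further topoisomerase genes 1 was tested, Top1mt, the mitochondrial type I enzyme, at 4.91 and 4.00 CPM in NT and 3.37 and 4.48 after 6 h (log2 fold change -0.18 ± 0.25, edgeR adjusted p = 0.68). Of 8 partners (Rmi1, Rmi2, Blm, Tdrd3, Topors, Topbp1, Btbd1 and Btbd2), 0 were called at any time, beside 1.31% to 15.8% of all TUs (edgeR, at an unadjusted p under 0.05 none at 0.5 hpd, 1 in each direction at 1 hpd, and 3 up and 0 down at 2 and at 6 hpd, DESeq2 1 at 2 hpd and 0 at the other times). Btbd1, a TOP1-binding protein, went from 85.5 and 76.8 CPM in NT to 97.7 and 105 after 6 h (log2 fold change 0.32 ± 0.11, edgeR adjusted p = 0.070), and its paralog Btbd2 from 27.8 and 21.1 to 22.1 and 20.6 (-0.20 ± 0.16). The median log2 fold change of the partners at 6 hpd was 0.13, beside -0.04 over all TUs.

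Of 12 genes that repair DNA bound to a trapped topoisomerase, 10 were tested and Parp1 was called, down at 6 hpd, where 9.20% of all TUs were called down. Parp1, which encodes the enzyme that marks strand breaks with ADP-ribose chains, was at 205 and 206 CPM in NT, 227 and 216 after 0.5 h, 179 and 183 after 1 h, 165 and 167 after 2 h, and 148 and 140 after 6 h. Both libraries were below NT from 1 hpd on. It fell by 0.51 ± 0.10 at 6 hpd (edgeR adjusted p = 0.0018). The highest values at 6 hpd were those of Rbbp8 and Rad50 (0.24 each), and the median over the 10 was 0.06.

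Among genes that shape chromosomes alongside TOP2A, 1 of 8 condensin genes was called up at 6 hpd, beside 6.61% of all TUs, and 0 at earlier times (edgeR, 0, 1 and 5 up at an unadjusted p under 0.05 at 0.5, 1 and 2 hpd, DESeq2 0). It was Smc4, an ATPase of the complex, at 267 and 249 CPM in NT and 328 and 335 after 6 h (log2 fold change 0.36 ± 0.12, edgeR adjusted p = 0.048), and the count was 0 without either library of NT, 1 hpd or 6 hpd. The median of the 8 at 6 hpd was 0.19. Of 10 cohesin and CTCF genes, 3 were called up at 2 hpd (Stag1, Stag2 and Nipbl, log2 fold changes 0.58, 0.80 and 0.52) and 2 at 6 hpd (Stag1 0.57 and Stag2 0.65), beside 4.26% and 6.61% of all TUs. Counted at an unadjusted p under 0.05, 3, 9 and 4 of the 10 were up at 1, 2 and 6 hpd and 0 down (edgeR), and DESeq2 called 1, 3 and 3 up. The medians of the 10 at 2 and 6 hpd were 0.34 and 0.26. Stag2, a cohesin subunit and the gene most like Top1 in profile, was at 91.5 and 82.4 CPM in NT, 136 and 120 after 1 h, 180 and 122 after 2 h, and 138 and 136 after 6 h (edgeR adjusted p = 0.0064 after 2 h and 0.016 after 6 h). The cohesin count at 2 hpd ran from 0 without NT replicate 2 or 2 hpd replicate 1 to 8 without 2 hpd replicate 2, and was 1 without NT replicate 1 or either 1 hpd library. At 6 hpd it ran from 0 without NT replicate 2 or 6 hpd replicate 2, and 1 without NT replicate 1 or 6 hpd replicate 1, to 4 without either 2 hpd library.

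Top2a is known to peak late in the cell cycle, so genes of G2 and mitosis were set beside it. Of 16, 1 was called up at 2 hpd (Cenpf, a kinetochore protein) and 3 at 6 hpd (Cenpf, Mki67 and Cenpe), and 0 down (edgeR, 0 at an unadjusted p under 0.05, DESeq2 0), beside 4.26% and 6.61% of all TUs called up at these times. Cenpf was at 193 and 183 CPM in NT, 283 and 246 after 2 h, and 274 and 263 after 6 h (log2 fold change after 6 h 0.52 ± 0.10, edgeR adjusted p = 0.0035), Mki67 changed by 0.40 and Cenpe by 0.36 after 6 h. Cdk1, the kinase that starts mitosis, was at 295 and 276 CPM in NT and 254 and 255 after 6 h (-0.17, edgeR adjusted p = 0.29). Counted at an unadjusted p under 0.05, 5 of the 16 were up at 2 hpd and 5 at 6 hpd (edgeR), and DESeq2 called 2 and 3 up. The median of the 16 at 6 hpd was 0.13 and that of Top2a alone 0.28. The count at 6 hpd was 1 without NT replicate 2 or either 6 hpd library, and that at 2 hpd was 0 without NT replicate 2, and 2 and 5 when replicate 2 of 0.5 hpd or of 2 hpd was left out.

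Of 12 genes of RNA polymerase II elongation, 1 was called up after 6 h, Aff4, the scaffold of the super elongation complex, from 276 and 251 CPM in NT to 354 and 371 (log2 fold change 0.46 ± 0.12, edgeR adjusted p = 0.018), where 6.61% of all TUs were called up. The count was 0 without NT replicate 2 or either 6 hpd library. Counted at an unadjusted p under 0.05, 3 of the 12 were up at 2 hpd and 2 at 6 hpd (edgeR), and DESeq2 called 1 up at 2 hpd and 1 at 6 hpd. The median of the 12 at 6 hpd was 0.04. Polr2a, the largest subunit of the polymerase, had a log2 fold change of 0.17 (edgeR adjusted p = 0.27) and Cdk9, the elongation kinase, of -0.14.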

How the data were processed

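Nascent RNA was measured by TT_chem_seq in 10 libraries, which the labels place in 5 groups of 2. According to the study's methods reads were mapped by the authors to mm10 with BWA (0.7.17-r1188, per the submitters' processing notes). They filtered alignments with SAMtools (1.10), removed duplicates with Picard (2.12.0), split alignments by strand, called TUs on pooled data and deposited raw fragment counts per TU, without normalization. Deposited TU starts may be 1 bp low in a count from 1.

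A TU entered the tests if 2 or more libraries held more than 10 fragments of it, and those left out held 0.316% of all fragments. The model was fitted in edgeR 4.0.16 (R 4.3.3) with TMM factors, 1 coefficient per group and no covariates, followed by quasi-likelihood F-tests. Calls required a p under 0.05 after Benjamini-Hochberg adjustment over all TUs tested. The SE is the size of the log2 fold change over the square root of F. CPM used the TMM factors, and log2 CPM a prior count of 2. The procedure was tested on simulated data. Library totals and the spread between replicates, a biological coefficient of variation of 10.0%, set the precision, and replicates were no duplicates of a library (chi-square over its degrees of freedom 3.09 to 11.0). Intervals cover only that spread.

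Named TUs were the members, all TUs opposite them, the nearest tested gene on each side, the 3 genes with a mean of at least 50 fragments closest in profile to each member, and the genes with the smallest p in each direction at 6 hpd in each list, of which some are not reported here. The members and lists were chosen with earlier results of these data known. A TU counted as opposite from 1 bp of overlap. Sequences came from the GRCm38.p6 genome and RefSeq promoters of the same build, and 4 of 5 members were matched. Alternatives were DESeq2 1.42.0, RLE factors, total counts only, no filter, a mean of at least 50 fragments, a replicate block, only the libraries compared, an overlap of at least 50% and leaving out each library. Groups of 2 allowed no test for outlying samples.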

Additional observations from a re-analysis of the deposited data

How the results depend on the processing

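The calls of the unit across the start of Top1 at every time, and of Top2b and Ngly1 at 6 hpd, held under every alternative run, and the overlap of at least 50% changed no count. Topoisomerase genes called up numbered 2 at 1 hpd with the replicate block and 3 with only the libraries compared (0 to 1 leaving out a library), 0 to 3 at 2 hpd leaving out a library, 1 at 6 hpd with a mean of at least 50 fragments (1 to 3 leaving out a library) and 0 to 1 at 6 against 1 hpd leaving out a library. Jointly, 2 were called by DESeq2, with total counts or without a filter, 3 with the block, and 1 to 3 leaving out a library. Opposite-strand units called up numbered 1 at 0.5, 2 and 6 hpd with the block, and 1 at 6 hpd without a filter or with only the libraries compared (0 to 1 leaving out a library). Those called down numbered 2 at 1 hpd with the block, 1 at 2 hpd by DESeq2 or with only the libraries compared, 1 at 6 hpd by DESeq2, with RLE factors or without a filter, and 1 to 2 at 2 and at 6 hpd leaving out a library. The numbers are shared labels, and no source says that they pair libraries. Same-numbered deviations correlated positively in all 10 pairs of groups (0.0544 to 0.663). The block called 3.94%, 11.2%, 19.1% and 26.1% of all TUs at 0.5, 1, 2 and 6 hpd. With the replicate block Top1, Top2b and Mief2 were called at 1 hpd (adjusted p = 0.018, 0.041 and 0.015) and Top2a and Rarb at 6 hpd (adjusted p = 0.030 and 1.0e-07).

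Values that were not called changed sign as follows, and the cause was not tested. With total counts only, Top3a was at -0.044, -0.070 and -0.016 at 1, 2 and 6 hpd, Top3b at -0.014 at 1 hpd, Plcg1 at -0.076 and Ppm1f at -0.026 at 6 hpd. With a mean of at least 50 fragments, Plcg1 was at -0.036 at 6 hpd, and Top2a at -0.025 and Top3a at -0.0073 at 6 against 1 hpd. With only the libraries compared, Plcg1 was at -0.0076. DESeq2, RLE factors and no filter gave Fam83d 0.026, 0.026 and 0.018 and Smcr8 0.015, 0.015 and 0.0067 at 6 hpd. Leaving out 1 library, Top1 ran from -0.032 to 0.31 at 0.5 hpd. At 6 against 1 hpd it ran from -0.00086 to 0.18, Top2a from -0.0086 to 0.030 and Top3a from -0.030 to 0.084. Top3a at 2 hpd ran from -0.0025 to 0.089. At 6 hpd the unit opposite the end of Top1 ran from -0.40 to 1.05, those opposite Top2a from -0.46 to 0.091 and from -1.12 to 1.09, Fam83d from -0.095 to 0.13, Plcg1 from -0.074 to 0.11, Smcr8 from -0.094 to 0.11, Gjd3 from -0.17 to 0.77 and Igll1 from -0.77 to 0.071. Of the counts over lists, 82 of 952 moved by more than 1.5 times, and of their medians 12 of 476 by more than the median SE of their genes. Depth limits the opposite units of Top2a and at the start of Top2b, with 1 to 50 fragments per library.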
